A study of Mus musculus with 13 samples.

Results

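The 10 genes described here encode enzymes of branched-chain amino acid breakdown and the kinase that restrains it: *Bcat2*, *Bckdha*, *Bckdhb*, *Dbt*, *Bckdk*, *Ivd*, *Mccc1*, *Mccc2*, *Hibch* and *Pcca*. They were chosen by name for their place in the pathway, by a rule that uses no measured value, and are 10 of the 34419 genes counted. Gluteal white adipose tissue (WAT) came from C57BL/6J mice aged 13 weeks that had lived since birth either at 22°C (n = 7), a usual animal room temperature, or at 29°C, which is thermoneutral for mice (n = 6). Mice of both groups had their posterior hair removed after weaning, so no group with intact fur enters any comparison. Bulk RNA of the tissue was sequenced as 1 library for each replicate in the labels, and the comparison asks whether gluteal WAT of mice at the cooler temperature carried more or less mRNA of these enzymes.

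Leucine, isoleucine and valine share the first steps of their breakdown in mitochondria. BCAT2 moves the amino group to 2-oxoglutarate, and the branched-chain ketoacid dehydrogenase complex, built from the E1 subunits BCKDHA and BCKDHB, the E2 core DBT and the shared E3 subunit DLD, then removes a carboxyl group in the step that commits the carbon skeleton. The kinase BCKDK phosphorylates BCKDHA and switches the complex off, and the phosphatase PPM1K switches it on. Downstream, IVD and the 2 subunits of methylcrotonyl-CoA carboxylase serve leucine, HIBCH serves valine, and propionyl-CoA carboxylase, of which PCCA is a subunit, takes up carbon from valine and isoleucine. Differentiated white adipocytes are known to use these amino acids as a source of acetyl-CoA and propionyl-CoA for lipid synthesis.

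Promoters of 9 of the 10 genes were found in RefSeq (build GRCm38.p6), each taken as the 250 bases before an annotated start. *Bcat2*, *Bckdhb* and *Pcca* had 2 annotated starts each. A single window was read for each of them, and the other start was not examined. *Dbt* was not matched. The CCAAT box, the letters CCAAT on either strand, was present in 6 of 9 promoters (*Bckdhb*, *Bckdk*, *Ivd*, *Mccc1*, *Mccc2* and *Pcca*), compared with 34.5% of 27025 promoters of the same length. *Ivd*, *Mccc1* and *Bckdk* are printed because, over all 13 mice, the first pair moved with most of the other genes and *Bckdk* did not. *Bckdha* is printed because an annotated gene on the opposite strand shares 61.7% of its exon bases. Sequences read 5′ to 3′ on the strand of the gene, and capitals mark CCAAT or its complement ATTGG, the GC box GGGCGG or its complement CCGCCC, and in *Bckdk* the complement TTTATA of the letters TATAAA.
Ivd, chr2:118861744-118861993, plus strand: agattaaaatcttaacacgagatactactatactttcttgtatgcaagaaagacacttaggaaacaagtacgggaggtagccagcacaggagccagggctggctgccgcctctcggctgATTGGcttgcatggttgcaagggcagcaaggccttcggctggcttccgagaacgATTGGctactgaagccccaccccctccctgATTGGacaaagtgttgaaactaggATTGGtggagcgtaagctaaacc
Mccc1, chr3:36000679-36000928, minus strand: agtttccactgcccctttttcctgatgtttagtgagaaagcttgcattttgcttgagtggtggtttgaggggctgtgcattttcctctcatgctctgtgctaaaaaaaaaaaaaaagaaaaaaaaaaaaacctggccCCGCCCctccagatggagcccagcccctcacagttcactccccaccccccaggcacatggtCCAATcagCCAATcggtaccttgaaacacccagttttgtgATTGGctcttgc
Bckdk, chr7:127903823-127904072, plus strand: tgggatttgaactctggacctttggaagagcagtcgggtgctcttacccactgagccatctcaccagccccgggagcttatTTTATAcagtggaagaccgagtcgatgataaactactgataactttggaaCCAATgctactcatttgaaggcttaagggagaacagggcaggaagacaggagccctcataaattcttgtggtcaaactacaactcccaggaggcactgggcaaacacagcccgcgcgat
Bckdha, chr7:25658762-25659011, minus strand: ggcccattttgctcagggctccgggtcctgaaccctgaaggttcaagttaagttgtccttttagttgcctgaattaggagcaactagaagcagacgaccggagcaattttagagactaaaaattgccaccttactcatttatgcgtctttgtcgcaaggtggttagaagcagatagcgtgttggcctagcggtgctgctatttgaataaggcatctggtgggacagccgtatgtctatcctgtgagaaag
*Ivd* held 4 CCAAT matches, *Mccc1* held 3, *Bckdk* held 1 and *Bckdha* held none, as did *Bcat2* and *Hibch*. The median correlation with the other 9 genes (deviations from the temperature means, 13 mice) was 0.776 for *Ivd*, 0.648 for *Mccc1* and 0.089 for *Bckdk*. For the genes without a match it was 0.754 (*Bckdha*), 0.744 (*Bcat2*) and 0.753 (*Hibch*). Whether the motif bears on this was not tested. The GC box was found in 3 of 9 (*Bckdhb*, *Mccc1* and *Hibch*; 32.9% of all promoters), TATAAA in 1 of 9 (*Bckdk*; 13.0%) and CACGTG in 1 of 9 (*Mccc2*; 6.05%). The letters TCAAGGTCA, the NRF1 motif and the letters TGACGTCA were in 0 of 9, compared with 0.366%, 3.86% and 1.62% of all promoters, on both strands. A match describes these windows and no more.

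Before the genes are taken in turn, 3 properties of the libraries bear on them. Total counts were between 22356637 and 25245785. The lower totals belonged to 22°C replicates 1 to 5, and the cluster with higher totals held the other 2 mice of that group with all those from 29°C. Skeletal muscle markers took 0.0847% to 7.76% of counts in mice housed at 22°C and 0.0144% to 0.73% in those at 29°C (score difference, exact permutation P-adj = 0.338 over 8 marker lists). *Acta1* and *Myh4*, the most abundant of 16, ranged from 173 to 14900 CPM (counts for every 1000000 of a library, with library sizes scaled by the TMM method) and from 67.2 to 21700 CPM at 22°C, and no marker of the list stayed at or below 3 counts in all libraries. The 9 brown and beige fat markers took 0.00672% to 0.0218% and 0.00393% to 0.00695% of counts, with the mean log2 CPM at 2.09 and 0.636 (exact permutation P-adj = 0.014). Of 8 tested singly, 3 were called higher at 22°C (edgeR P-adj below 0.1, 0.731% of all genes). *Elovl3* (edgeR P-adj = 0.992) and *Kcnk3* (0.742) were not called, and *Ucp1*, with at most 7 counts in any library, was not tested. The mean log2 CPM of this list and of the muscle list was highest in 22°C replicate 1 (3.18 and 11.4). The part of the brown and beige fat markers in the values below was not tested. Adipocyte markers were abundant in every library, with *Fabp4* between 3030 and 5640 CPM and *Plin4* between 2430 and 4050 CPM over all mice. The mean log2 CPM of 10 mature adipocyte genes was 10.4 ± 0.215 (SD) at 22°C and 10.5 ± 0.105 at 29°C. In bulk tissue, fewer cells of a type and less RNA per cell cannot be told apart.

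None of the 10 genes passed the test between temperatures. All were counted well above the limit of detection in every mouse, with *Bckdhb*, the least counted, at 1477 counts or more. With edgeR's quasi-likelihood test and Benjamini-Hochberg adjustment over 17779 genes, 0 of 10 had P-adj below 0.1, compared with 1.94% of all genes. At an unadjusted p below 0.05 the count was also 0 of 10, compared with 18.5% of all genes, and DESeq2 likewise gave 0 by either threshold (10.2% and 11.4% of all genes), as did limma on the deposited log2 values (2% and 15.7%). In no gene were the 7 mice at 22°C separated from the 6 mice at 29°C, a separation seen in 1.24% of genes. Fitted log2 fold changes (22°C over 29°C) were above 0 for 3 genes and below 0 for 7 (51.6% of all genes were above 0), with a median of -0.10 compared with 0.01 over all genes tested. They lay between -0.26 and 0.23, and their 95% intervals between -0.52 and 0.49.

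**Figure D1:**
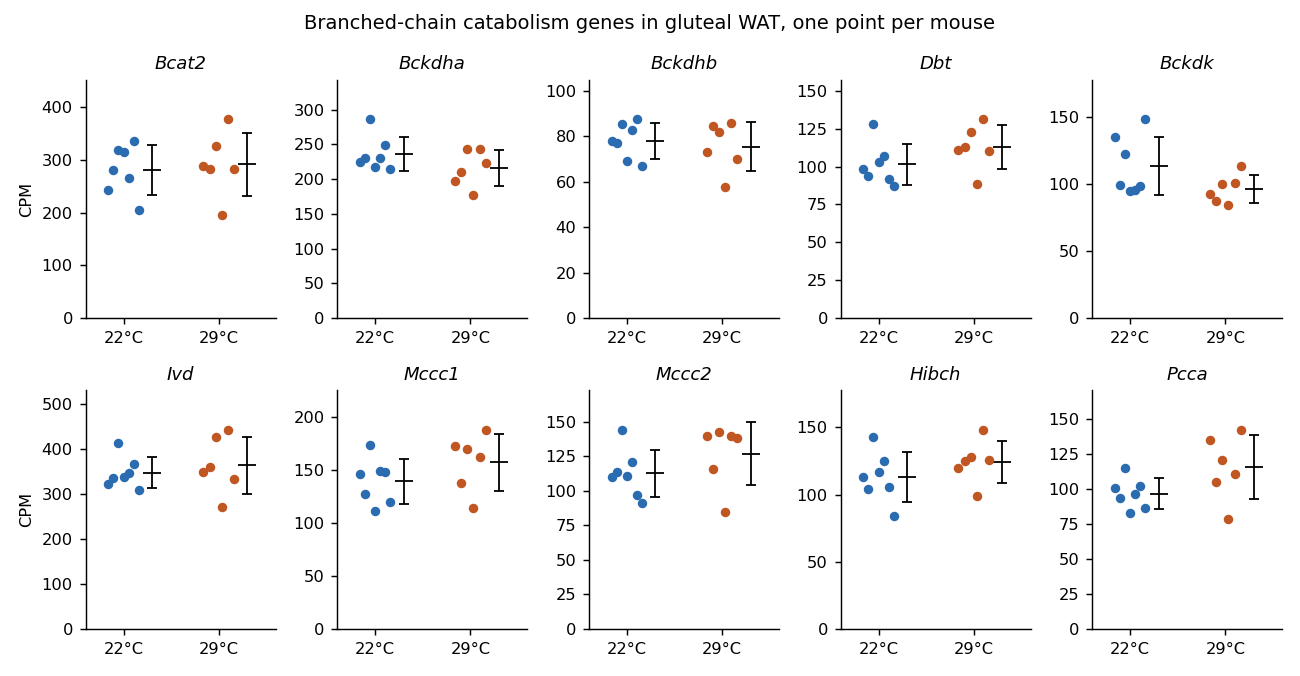
CPM (y axis, from 0) of the 10 genes in each of 7 mice at 22°C (blue) and 6 mice at 29°C (orange), with mean and SD in black beside the points. The groups overlap in every panel, and 29°C replicate 4 is the lowest mouse for 7 of the 10 genes.

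*Bcat2*, the mitochondrial aminotransferase that starts the pathway, was at 206 to 337 CPM at 22°C (median 281) and at 195 to 377 CPM at 29°C (median 286). The range at 29°C enclosed all mice at 22°C. Means were 281 ± 46.6 and 292 ± 59.9 CPM, and the log2 fold change was -0.06 (SE 0.15, edgeR P-adj = 0.87, 95% interval -0.37 to 0.26). This value changed sign in 4 of 25 alternative analyses, without passing the test in any. An antisense gene, *0610005C13Rik*, shares 15.95% of the exon bases of *Bcat2* and had 0.0563 to 0.0726 of its counts, and *Ggact* shares 4.63% of those of *Pcca*. For *Mccc1*, *Gm15952*, *Mccc1os* and *B230207O21Rik* share 0.86%, 1.81% and 2.93% of its exon bases, and had 0.0523 to 0.133 of its counts over the 13 libraries.

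Among the subunits of the dehydrogenase complex, *Bckdha*, the E1 alpha subunit that carries the regulatory phosphorylation, was at 215 to 286 CPM at 22°C (median 230) and at 178 to 244 CPM at 29°C (median 217). All but 1 of the mice at 22°C were above the median at 29°C. The log2 fold change was 0.13 (SE 0.09, edgeR P-adj = 0.48, 95% interval -0.07 to 0.32). *Bckdhb*, the E1 beta subunit, was at 66.7 to 87.3 CPM at 22°C (median 78.0) and 57.7 to 85.8 CPM at 29°C (median 77.2). These ranges nearly coincided, and the log2 fold change was 0.05 (SE 0.10, edgeR P-adj = 0.821, 95% interval -0.16 to 0.26). *Dbt*, the acyltransferase core to which E1 and E3 bind, was at 87.1 to 128 CPM at 22°C (median 98.6) and 88.4 to 131 CPM at 29°C (median 112). Only 22°C replicate 3 exceeded the 29°C median, and 29°C replicate 4 lay among the low mice at 22°C. The log2 fold change was -0.16 (SE 0.10, edgeR P-adj = 0.43, 95% interval -0.37 to 0.06).

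*Bckdk*, the inhibitory kinase, had the largest positive value of the 10. It was at 94.9 to 148 CPM at 22°C (median 99.5) and at 84.2 to 113 CPM at 29°C (median 96.1). The highest mice were 22°C replicate 7 at 148 CPM, replicate 1 at 135 CPM and replicate 3 at 122 CPM, while the other 4 mice at 22°C lay inside the range at 29°C. The log2 fold change was 0.23 (SE 0.12, edgeR P-adj = 0.311, 95% interval -0.02 to 0.49). Replicates 1 and 7 also had the highest muscle marker scores of all mice (mean log2 CPM of 11.4 and 11.3), and the part of muscle RNA in *Bckdk* was not tested.

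*Ivd*, isovaleryl-CoA dehydrogenase, was the most counted of the 10. It was at 309 to 413 CPM at 22°C (median 337) and at 272 to 442 CPM at 29°C (median 353). As with *Bcat2*, the range at 29°C enclosed the range at 22°C, and the log2 fold change was -0.07 (SE 0.11, edgeR P-adj = 0.783, 95% interval -0.30 to 0.17). *Mccc1*, the biotin-carrying subunit of methylcrotonyl-CoA carboxylase, was at 112 to 174 CPM at 22°C (median 147) and at 114 to 188 CPM at 29°C (median 167). Its partner subunit *Mccc2* was at 91.5 to 144 CPM at 22°C (median 111) and at 85.0 to 143 CPM at 29°C (median 139). For both subunits 1 of 7 mice at 22°C, replicate 3, lay above the 29°C median. Log2 fold changes were -0.18 (SE 0.12, edgeR P-adj = 0.478) for *Mccc1* and -0.17 (SE 0.13, edgeR P-adj = 0.502) for *Mccc2*, with intervals of -0.44 to 0.09 and -0.45 to 0.10.

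*Hibch*, the valine-specific hydrolase that frees 3-hydroxyisobutyrate from coenzyme A, was at 84.3 to 143 CPM at 22°C (median 113) and at 99.2 to 148 CPM at 29°C (median 126). The lowest and the second highest of all mice were both housed at 22°C, and the log2 fold change was -0.13 (SE 0.11, edgeR P-adj = 0.569, 95% interval -0.38 to 0.11). *Pcca*, the biotin-carrying subunit of propionyl-CoA carboxylase, had the most negative value of the 10 and the lowest P-adj. It was at 82.6 to 115 CPM at 22°C (median 96.7) and at 78.6 to 142 CPM at 29°C (median 116). None of the 7 mice at 22°C exceeded the 29°C median, but 29°C replicate 4 was the lowest of all mice. The log2 fold change was -0.26 (SE 0.12, edgeR P-adj = 0.283), with a 95% interval of -0.52 to 0.01 that corresponds to a change between -30.1% and 0.475%.

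Levels per length of transcript, as CPM per kb of the longest principal transcript, gave the order of the genes relative to each other. *Bcat2* was first at 162 CPM per kb, followed by *Bckdha* at 119 and *Ivd* at 96.8. *Hibch* (64.7), *Mccc1* (60.3), *Mccc2* (56.1) and *Bckdhb* (52.2) formed a middle group, and *Pcca* (40.7), *Dbt* (32.3) and *Bckdk* (31.0) stood last. The first 3 genes kept their order in 13 of 13 libraries, as did *Ivd* over *Hibch* and *Pcca* over *Dbt*. The remaining neighbors kept it in 9 to 11 of 13 libraries and are not ranked apart. With the length of all annotated exons in place of the principal transcript, *Bckdha* came first and *Mccc1* last, so the order depends on which transcripts the tissue uses.

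**Figure D2:**
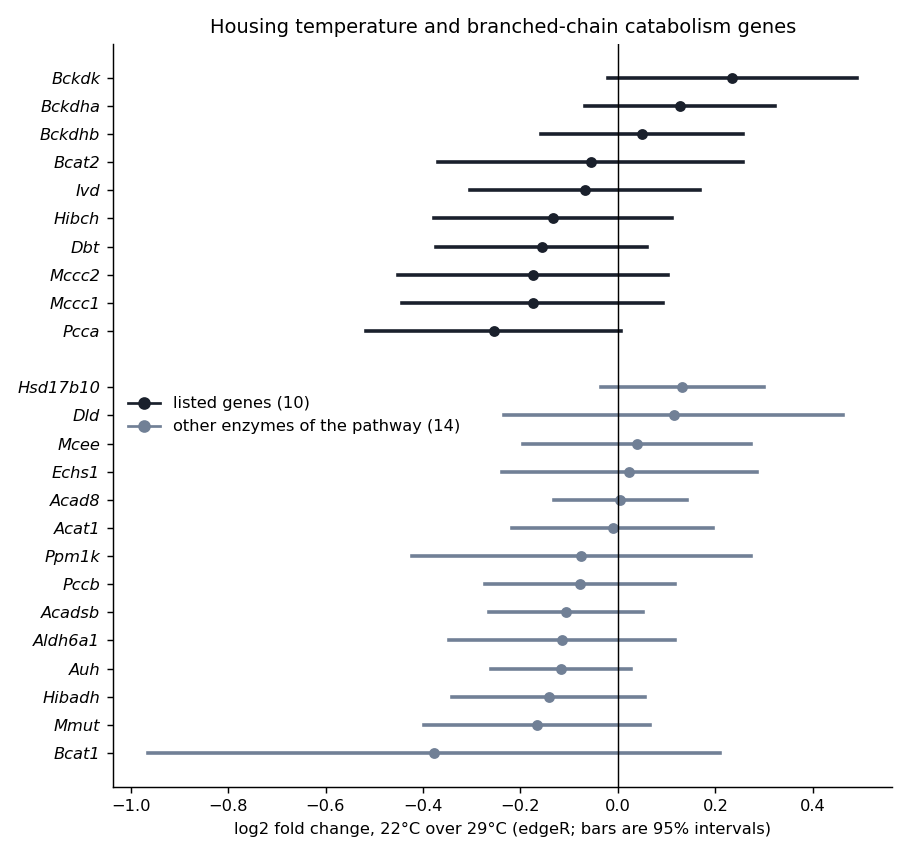
Log2 fold change of 22°C over 29°C (x axis) with 95% intervals from edgeR for the 10 genes (black) and 14 other enzymes of the pathway (grey), sorted within each set. Intervals of all 10 genes and of the 14 other enzymes include 0.

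The other enzymes of the pathway gave values of like size. Of 14, 5 had a log2 fold change above 0 and 9 below it, the median was -0.08, and with edgeR 0 of 14 passed at P-adj below 0.1 or at an unadjusted p below 0.05. DESeq2 and limma on the deposited log2 values called none of the 14 at P-adj below 0.1, where they called 10.2% and 2% of all genes. *Aldh6a1*, which acts on both valine and thymine breakdown products, was the most counted enzyme of the route (731 ± 93.7 and 791 ± 107 CPM). *Bcat1*, the cytosolic aminotransferase, was at 3.09 ± 1.23 and 4.02 ± 1.01 CPM, or 1.38 CPM per kb beside 162 for *Bcat2*, and its log2 fold change of -0.38 had an SE of 0.27. *Dld*, the E3 subunit shared with other dehydrogenases, was at 169 ± 36.8 and 156 ± 34.2 CPM, and the phosphatase *Ppm1k* at 16.5 ± 2.77 and 17.4 ± 4.45 CPM.

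The dehydrogenation, hydration and thiolysis steps between the complex and propionyl-CoA showed no call either. *Acadsb* (-0.11), *Acad8* (0.0050), *Echs1* (0.02), *Hsd17b10* (0.13) and *Acat1* (-0.01) had log2 fold changes with edgeR P-adj between 0.385 and 0.978. *Hibadh* (-0.14), *Auh* (-0.12), *Pccb* (-0.08), *Mcee* (0.04) and *Mmut* (-0.17), which encode hydroxyisobutyrate dehydrogenase, methylglutaconyl-CoA hydratase, the second propionyl-CoA carboxylase subunit, methylmalonyl-CoA epimerase and methylmalonyl-CoA mutase, had P-adj between 0.368 and 0.879.

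Of 14 genes for transport, cofactors and transcriptional control, 1 passed. *Mmaa*, a chaperone that loads the cobalamin cofactor onto methylmalonyl-CoA mutase, was at 13.1 to 16.3 CPM at 22°C (median 15.6) and at 17.5 to 22.1 CPM at 29°C (median 19.1). The groups did not overlap. *Mmaa* was lower at 22°C by a log2 fold change of -0.36 (SE 0.08, edgeR P-adj = 0.0714; 1.21% of all genes were called lower). This call was lost in 13 of 25 alternative analyses, with P-adj from 0.00323 to 0.364 over all of them. It was lost without any 1 of 7 mice (22°C replicates 4 and 5, and 29°C replicates 1, 2, 3, 5 and 6), with P-adj up to 0.17. The most abundant genes of the list, *Etfa* (196 ± 20.9 and 198 ± 15.2 CPM) and *Etfb* (142 ± 21.9 and 154 ± 22.0 CPM), which carry electrons from *Ivd* and its relatives, and the regulator *Klf15* (126 ± 30.0 and 129 ± 13.1 CPM), had P-adj of 0.643 or more. At an unadjusted edgeR p below 0.05, reached by 18.5% of all genes, 2 of the 14 had lower values at 22°C, *Mmaa* and *Slc3a2*. That compares with 1458 of all 17779 genes. A higher value was seen for 1 of the 14, *Slc43a2*, compared with 10.3% of all genes. *Slc3a2* and *Slc43a2*, which encode parts of amino acid transporters and were named after their values were seen, had log2 fold changes of -0.24 and 0.26 with edgeR P-adj of 0.246 and 0.261.

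Dehydrogenase complexes built on the same plan, with their own kinases and phosphatases, were set beside the branched-chain complex. Of these 12 genes, 10 had a log2 fold change above 0 and the median was 0.25, but 0 of 12 passed with edgeR. At an unadjusted p below 0.05 there were 4 with higher values at 22°C, compared with 10.3% of all genes. With a lower value there was 1, compared with 1458 of all 17779 genes. DESeq2 called 3 of them, where it called 10.2% of all genes. *Pdk2* and *Pdp1* were higher at 22°C (5.58% of all genes were called higher) and *Pdk3* was lower, with a DESeq2 log2 fold change of -0.41. *Ogdh* (599 ± 149 and 510 ± 67.6 CPM), *Pdha1* (401 ± 148 and 337 ± 92.3 CPM) and *Dlst* (242 ± 32.3 and 224 ± 27.8 CPM) were the most abundant and had P-adj between 0.442 and 0.606. Muscle markers were more abundant in several mice at 22°C as given above, and their part in these values was not tested.

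Because partner subunits are counted in the same library, their ratio does not depend on how libraries are scaled. Of 6 ratios, 1 differed between temperatures. The count of *Dbt* over that of *Bckdha* was 0.438, 0.409, 0.446, 0.476, 0.466, 0.368 and 0.405 in replicates 1 to 7 at 22°C. It was 0.561, 0.539, 0.509, 0.496, 0.539 and 0.493 in replicates 1 to 6 at 29°C. All 7 mice at 22°C lay below all 6 at 29°C. Geometric means were 0.428 and 0.522, a difference of -0.29 on the log2 scale or -18.0% (two-sided exact permutation p = 0.00117 with all 1716 splits, P-adj = 0.00699 for the 6 ratios). The difference lay between -0.31 and -0.25 when any 1 mouse was left out, with P-adj up to 0.0152. Within the cluster of higher library totals it was -0.44 with 2 mice at 22°C. The P-adj of 0.214 there is the smallest that 28 splits and 6 ratios allow, so this setting could not pass.

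Over the 13 mice, the log2 ratio and the muscle marker score had Pearson's r of -0.31 (permutation p = 0.302) and Spearman's rho of -0.379 (permutation p = 0.2). Within temperatures r was -0.023 at 22°C and 0.657 at 29°C, and it was -0.262 without 22°C replicate 1 and 29°C replicate 6, whose scores were farthest from the median. The part of muscle RNA in the ratio was not tested. A second measurement bears on the denominator. In the GENCODE annotation of GRCm38, 1171 of 1899 exon bases of *Bckdha* (61.7%) are also exon bases of *B3gnt8*, a glycosyltransferase gene on the opposite strand. The count of *B3gnt8* was between 0.754 and 0.797 of that of *Bckdha* in all 13 libraries (Pearson r = 0.989 between their log2 CPM, a description). The strand setting of the counting is not given in the sources used here, so reads of the pair cannot be told apart, and the level of *Bckdha* and its ratios carry that uncertainty. With *Bckdhb*, the other E1 subunit, in place of *Bckdha*, a comparison added after the overlap was seen, the ratio of *Dbt* was 1.05 to 1.5 at 22°C and 1.34 to 1.57 at 29°C. The groups then overlapped, with 5 of 7 mice at 22°C below all mice at 29°C, and the difference was -0.21 on the log2 scale (exact permutation p = 0.0181, P-adj = 0.108).

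**Figure D3:**
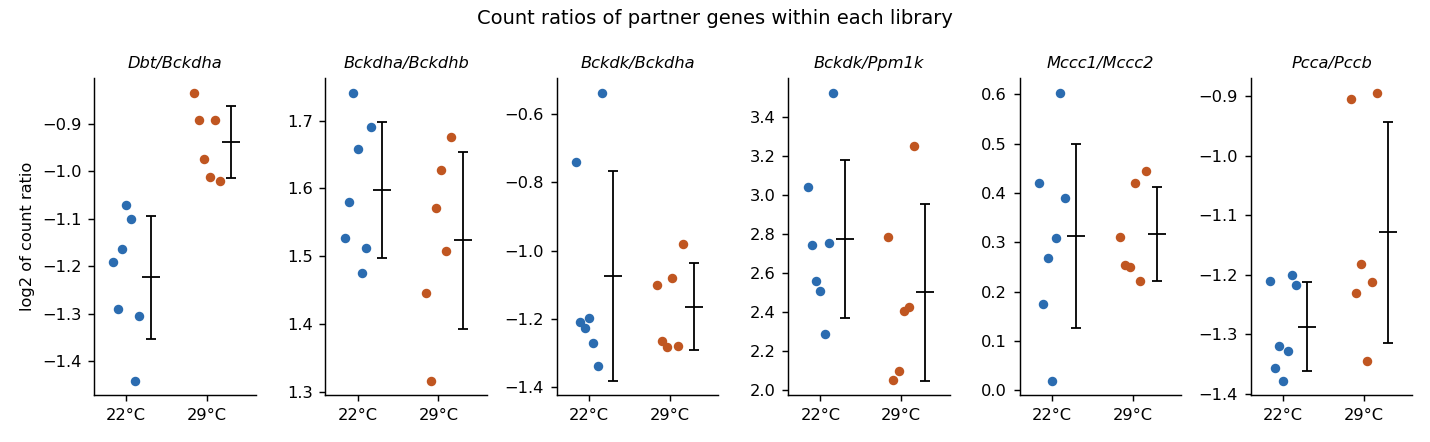
Log2 of the count ratio of partner genes (y axis, a separate scale in each panel, not starting at 0) in 7 mice at 22°C (blue) and 6 mice at 29°C (orange), with mean and SD in black. Only *Dbt*/*Bckdha* separates the temperatures, with 0.368 to 0.476 at 22°C and 0.493 to 0.561 at 29°C before taking logs.

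**Figure D4:**
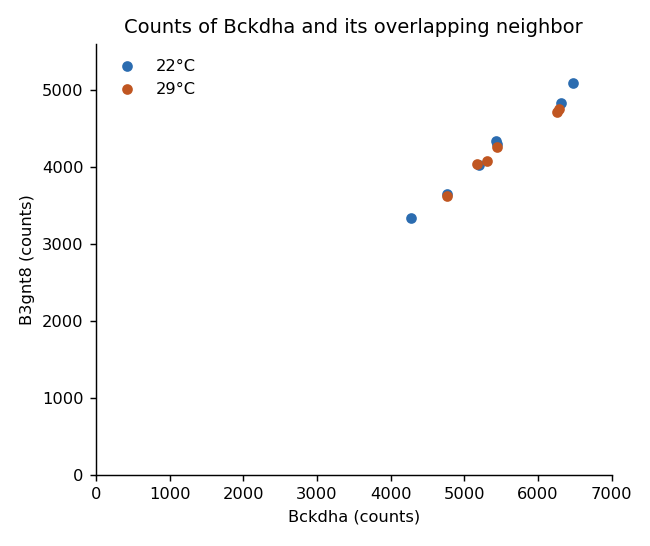
Counts of *B3gnt8* (y axis) against counts of *Bckdha* (x axis), both from 0, in 13 libraries. The points lie close to a line through 0, since the ratio stayed between 0.754 and 0.797 at both temperatures.

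The other ratios did not pass. *Bckdha* over *Bckdhb*, the E1 pair, was 3.03 at 22°C and 2.88 at 29°C (log2 difference 0.07, exact permutation p = 0.273, P-adj = 0.42). The kinase over its substrate, *Bckdk*/*Bckdha*, was 0.475 and 0.446 (log2 difference 0.09, exact permutation p = 0.522, P-adj = 0.626), with the 2 muscle-rich mice at 22°C highest. Kinase over phosphatase, *Bckdk*/*Ppm1k*, was 6.85 and 5.67 (log2 difference 0.27, exact permutation p = 0.28, P-adj = 0.42). *Mccc1*/*Mccc2* was 1.24 and 1.25 (log2 difference -0.0048, exact permutation p = 0.96, P-adj = 0.96). *Pcca*/*Pccb* was 0.410 and 0.457 (log2 difference -0.16, exact permutation p = 0.0653, P-adj = 0.196), and without 29°C replicate 4 the difference was -0.20 with exact permutation P-adj = 0.0417.

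Differences between mice of the same temperature were larger than the difference between temperatures. The mean log2 CPM of the 10 genes at 22°C was 7.15 ± 0.14 (SD, n = 7), that at 29°C was 7.20 ± 0.21 (SD, n = 6), and single mice lay between 6.81 (29°C replicate 4) and 7.41 (22°C replicate 3). The genes varied together. Over 45 pairs of genes, the correlation of deviations from the temperature means had a median of 0.712 over 13 mice, and 42 pairs were above 0. *Mccc1* with *Pcca* reached 0.953. Spearman's rho was lower for some pairs, such as *Ivd* with *Mccc1* (0.357 beside r = 0.629), and higher for others, such as *Mccc1* with *Pcca* (0.978). Pairs of other genes were not examined, so the median of 0.712 is not shown to be particular to the pathway. *Bckdk* stood apart over all 13 mice, with a median correlation of 0.089 with the other 9 genes. For each of the rest it was 0.563 (*Pcca*) to 0.776 (*Ivd*). The count of *Bckdk* over that of *Bckdha* was 0.599 and 0.689 in 22°C replicates 1 and 7, and at most 0.507 in every other mouse. How far the median of 0.089 rests on these 2 mice was not tested. The correlations are descriptions over the same 13 libraries, which share one scaling.

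**Figure D5:**
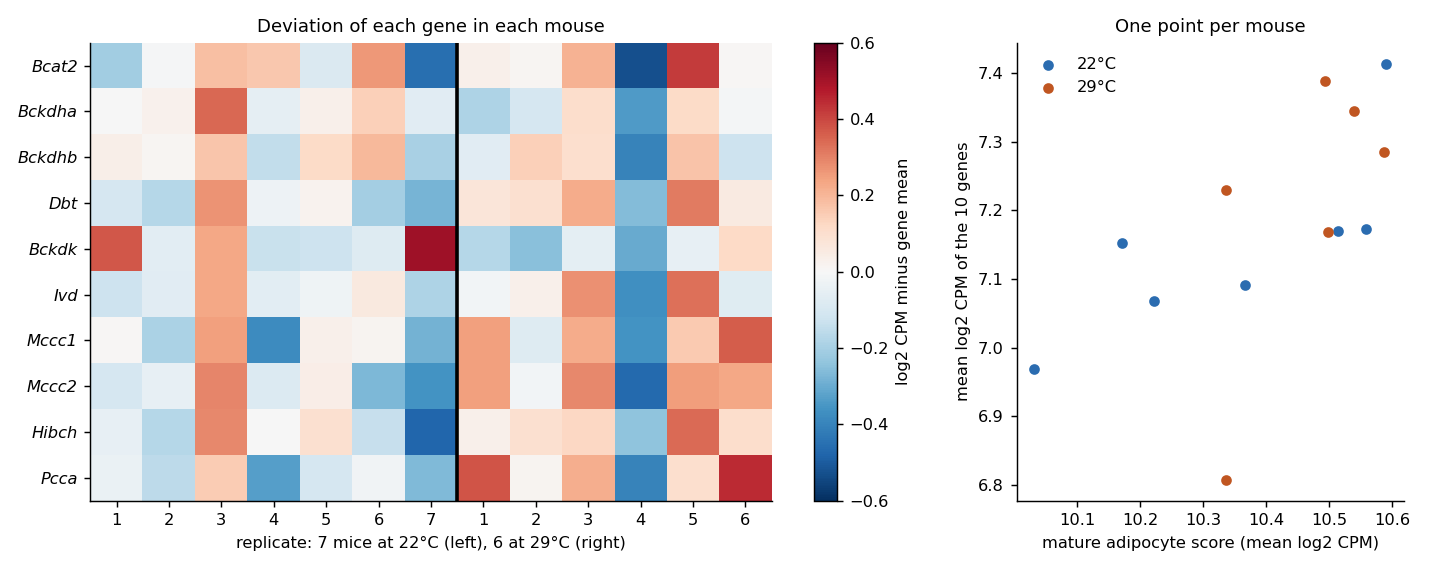
Left, log2 CPM of each gene minus its mean over 13 mice (color, from -0.6 to 0.6), with 22°C replicates left of the line and 29°C replicates right of it. Right, mean log2 CPM of the 10 genes (y axis) against the mean log2 CPM of mature adipocyte markers (x axis) in each mouse. The columns of 22°C replicate 3 and 29°C replicate 4 are of one color, while others, such as 22°C replicate 6, are mixed. In the right panel 29°C replicate 4 is lowest at 6.81.

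The levels were set against the mature adipocyte score, and few of these relations passed after adjustment. Pearson's r over 13 mice was between 0.471 and 0.723 for 9 genes and -0.423 for *Bckdk*. *Hibch* had the highest, r = 0.723 (permutation p = 0.00486, P-adj = 0.0972 over 20 relations) with Spearman's rho of 0.709 (permutation p = 0.0089, P-adj = 0.089). Within temperatures its r was 0.728 at 22°C and 0.626 at 29°C, and it was 0.546 without 22°C replicates 1 and 7, the mice farthest from the median score. For the other 9 genes, the P-adj of r with the adipocyte score was between 0.117 and 0.213. By rank, *Mccc1* (rho = 0.736, permutation P-adj = 0.089) and *Mccc2* (rho = 0.676, permutation P-adj = 0.0913) were also below 0.1. For *Bckdk*, r was 0.579 without the same 2 mice and rho over all mice was 0.022, so its negative value rested on them. For the skeletal muscle score, no P-adj of r was below 0.161 (r from -0.506 for *Mccc1* to 0.43 for *Bckdk*). By rank the lowest permutation P-adj was 0.102, with rho of -0.571 for *Hibch* and -0.549 for both *Mccc1* and *Pcca*. With the adipocyte score or the muscle score as a covariate in edgeR, again 0 of 10 genes passed between temperatures, compared with 1.15% and 0.231% of all genes. With the higher library totals only it was also 0 of 10 (0.042% of all genes).

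Among genes tested that are in none of the pathway or marker lists, the 5 whose log2 CPM followed the mean of the 10 genes most closely over 13 mice were *Pon3* (Pearson r = 0.923), *Mcat* (0.899), *Aldh1l1* (0.882), *Acsf3* (0.875) and *Kyat3* (0.875). *Pon3* encodes a lactonase, *Mcat* and *Acsf3* enzymes of mitochondrial fatty acid synthesis, *Aldh1l1* an enzyme of folate metabolism and *Kyat3* an aminotransferase. None of the 5 passed between temperatures (edgeR P-adj from 0.369 to 0.97). Within the pathway, *Pccb* (r = 0.943), *Echs1* (0.907) and *Hibadh* (0.889) were the most alike of the listed genes, and the amino acid transporter *Slc7a5* was the least (-0.591).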

How the data were processed

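The authors aligned the reads with STAR 2.7.5a and counted them per gene with featureCounts, and the submitters' processing notes name the GRCm39 build. The annotation and the strand setting are not given in the sources used here. The authors deposited raw counts of 34419 genes in 13 libraries and log2 values of the same counts, regularized with DESeq2. Symbols were matched by gene identifier (34006 genes). Counts were compared with edgeR 4.0.16 in R 4.3.3 (TMM scaling, filterByExpr, quasi-likelihood F test, Benjamini-Hochberg adjustment, P-adj below 0.1), with no block or covariate. The SE is the absolute log2 fold change over the square root of F. Log2 CPM had a prior count of 2. Ratios were tested by exact permutation of log2 count ratios and correlations with 100000 permutations. DESeq2 1.42.0 and limma 3.58.1 were alternatives. The methods were tested on simulated counts. The lowest chi-square per gene between 2 libraries was 15.5, so each library was counted as 1 replicate. The study housed mice singly. Whether replicates came from separate litters is not given in the sources used here. The p-values set group differences against the spread between these samples and treat the libraries as independent, which could not be checked. A count of 0 allows 3 counts, for counting error only. All 10 genes were named, with the other enzymes of the pathway except 1 that is not reported here, called or most abundant genes of the related lists, and the 5 most similar genes. The rule names the 10 genes without using their values, but the genes and lists were chosen with earlier results of these data known.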

Additional observations from a re-analysis of the deposited data

Results flagged for a closer look

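Of 60 groups of 6 or 7 mice checked for a mouse far from the others, 2 were flagged, and chance flags about 1 in 20. *Aldh6a1* was at 916 CPM in 22°C replicate 3, far above the median of 711 CPM of that group; this mouse also had the highest mean of the 10 genes. *Pccb* was at 200 CPM in 29°C replicate 4, far below the median of 256 CPM; this mouse had the lowest mean of the 10 genes.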

How the results depend on the processing

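The count of the 10 genes past the threshold was 0 in all 25 alternative analyses, including the one with the library-total cluster as a covariate, where 4 of all genes were called. Single log2 fold changes changed sign for *Bcat2* in 4 settings, for *Bckdhb* in 1 and for *Ivd* in 1. Of the other 40 pathway genes, 1 passed in the main test, 4 with DESeq2, and 0 with P-adj below 0.05, without a filter on low counts, with the muscle score, the adipocyte score or the library-total cluster as a covariate, or with higher totals only. Leaving out each mouse gave 0 to 1. Of the ratios, 1 passed in the main test, 0 with higher totals only, where 28 splits allow no P-adj below 0.214 over 6 ratios, 0 with *Dbt*/*Bckdhb* in place of *Dbt*/*Bckdha*, and 1 to 2 when each mouse was left out. Of the 5 most similar genes, 1 was also among the 5 by Spearman's rho. Over all genes, 345 passed, compared with 1676 with DESeq2, 40 with P-adj below 0.05, 42 without a filter, 41 with the muscle score, 204 with the adipocyte score, 4 with the cluster, 8 with higher totals only, and 32 (without 29°C replicate 3) to 652 (without 22°C replicate 6) when each mouse was left out. The causes were not tested. Replicate numbers were shared by both groups for 6 pairs. Deviations of same-numbered mice correlated between 0.051 and 0.513, and 4 of 6 correlated best with their own number. The main tests did not use this pairing. Whether same-numbered mice shared a source was not tested, and no label gives one. With the replicate block, 0 of the 10 genes, 1 of the other pathway genes, 263 of all genes and 2 ratios passed, the log2 ratio Pcca/Pccb being the added one (P-adj = 0.0938). Depth was not limiting for the 10 genes, which had at least 1477 counts in every library.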
